A study of Drosophila melanogaster with 4 samples.

Results

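The left arm of chromosome 2 (2L) of Drosophila melanogaster held 1126 regions enriched for Su(var)3-7 in its euchromatic part, out of 9474 enriched regions in the combined list of the series and 1349 on the whole arm. The members were chosen by position alone: regions of the combined list on 2L that start above base 1000000 and below base 21011545, in coordinates of FlyBase release 5. The bounds leave out 1 Mb at the tip and 2 Mb at the centromere end, and no region marked as depleted lies on 2L. The same rule gave 877 regions in the list of ChIP replicate 1 and 789 in that of ChIP replicate 2. Next to the lower bound, the combined region from 960148 to 961184 (score 0.445) fell outside and the one from 1005656 to 1008764 (score 1.15) inside. Next to the upper bound, the region from 20995345 to 20996927 (score 0.237) fell inside and the one from 21050805 to 21053985 (score 0.822) outside.

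The libraries came from head nuclei of adult flies of the wild-type strain Oregon-R (Oregon-R-modENCODE), of the stage given as Mixed Adult, with no transgene and no treatment. The 2 ChIP libraries were made with the antibody Q3448 against Su(var)3-7, and the 2 input libraries are sonicated chromatin, 1 for each ChIP library. Heads were sieved from flies kept in population cages, so each library averages over all cell types of many heads. Nothing in the labels says that the replicates were separate collections, so the spread between them may be technical.

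Su(var)3-7 is a protein with several zinc fingers set far apart, which binds DNA and heterochromatin protein 1 (HP1). Its dose changes position-effect variegation, the patchy silencing of a gene moved next to heterochromatin: extra copies strengthen the silencing and loss weakens it. On polytene chromosomes of larval salivary glands it is best known from the chromocentre, chromosome 4 and some telomeres. The euchromatic arm described here is the gene-rich sequence away from those places, and the comparisons ask how the regions are spread along it and which of them both replicates marked.

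Regions covered 11.2% of the 20.0 Mb interval in replicate 1 and 10.5% in replicate 2, a mean of 10.9% ± 0.528 (SD, n = 2). They numbered 833 ± 62.2, or 41.6 ± 3.11 per Mb (SD, n = 2), and covered 2247 kb and 2097 kb. The combined list covered 15.2% of the interval, or 3046 kb, which is more than either replicate. Read counts are not part of the lists. The depth is therefore unknown, and a stretch without a region cannot be told apart from one sequenced too thinly to call. With 2 replicates, the smallest p that an exact sign-flip permutation test (two-sided) allows is 0.5, so no test was run and values are given per replicate.

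Most regions were short and alike in length. Replicate 1 had a median length of 2196 bp, with the middle 50% from 1888 to 2804 bp. Replicate 2 had a median of 2147 bp and a middle 50% from 1857 to 2834 bp. Of the length classes of 200 bp, the one from 2000 to 2199 bp was the fullest in each list. It held 167 regions of replicate 1 (19.0%), 157 of replicate 2 (19.9%) and 153 of the combined list (13.6%). The combined list had another full class at its lower end: 110 of its regions were 1000 to 1199 bp long, a class that is empty in the replicate lists, whose shortest members were 1302 and 1301 bp. Its median was 2165 bp.

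Long regions were few, and the replicates differed more in them than in the short ones. Regions of at least 10000 bp numbered 3 in replicate 1, 8 in replicate 2 and 13 in the combined list, and held 1.60%, 5.00% and 5.78% of the summed region length. The longest combined region ran from 20073418 to 20101373, a length of 27956 bp with a score of 0.993. Replicate 1 covered 87.1% of it with 5 regions and replicate 2 covered 96.4% with 3. The next ran from 16267338 to 16285001 (17664 bp), where 3 regions of replicate 1 covered 74.0% and 3 of replicate 2 covered 54.0%. The third, from 11998475 to 12014616 (16142 bp), was a single region in replicate 2 and 3 regions in replicate 1. The fourth and the fifth, from 1116951 to 1130464 (13514 bp) and from 2193745 to 2206205 (12461 bp), were each 1 region in either replicate, with at least 93.5% of their length covered. Each of the 13 combined regions of at least 10000 bp overlapped both replicates.

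**Figure D1:**
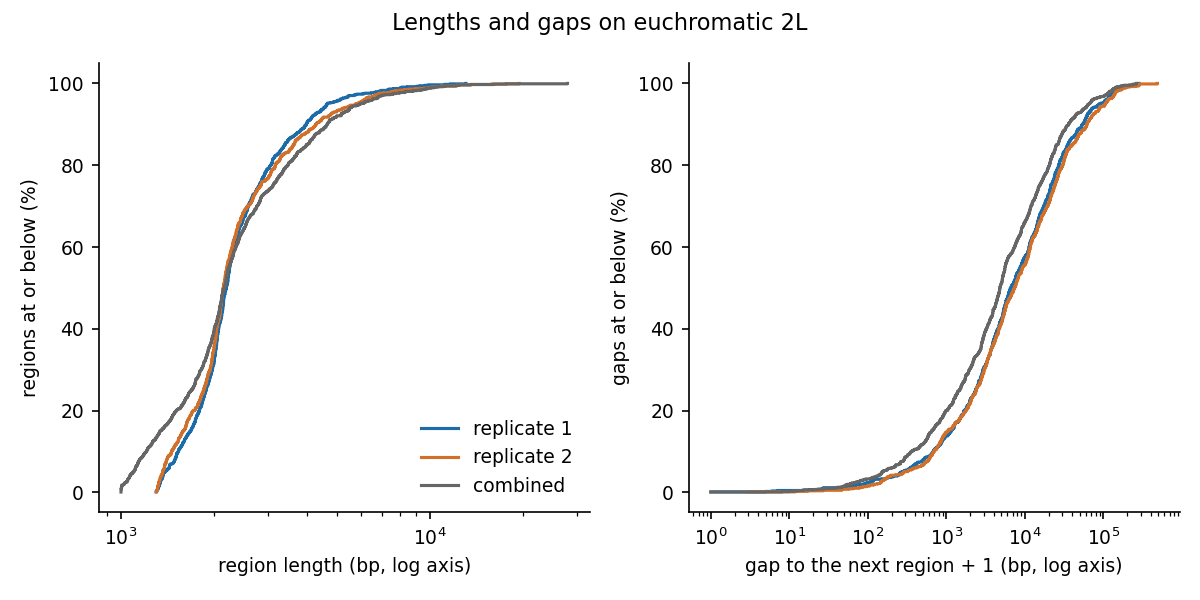
Cumulative share of regions by length (left) and of gaps between neighbouring regions (right, with 1 bp added) on euchromatic 2L, in replicate 1, replicate 2 and the combined list, both on log axes in bp. The replicate lines lie close together, with medians of 2196 and 2147 bp for length, and the combined line starts lower, at 1001 bp.

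Spacing was far from even. The gap from the end of a region to the start of the next had a median of 6594.5 bp in replicate 1 and 7388 bp in replicate 2, whereas the mean gaps were 20178 and 22708 bp. Short gaps were common: 13.8% and 14.7% of gaps were under 1000 bp, and 42.2% and 41.2% under 5000 bp. Long gaps were few but took up much of the room. In each replicate 96 gaps reached 50 kb, and they held 48.9% of the interval in replicate 1 and 53.2% in replicate 2. In the combined list 80 such gaps held 40.6%. Gaps of 100 kb or more numbered 42 and 44 and held 31.3% and 35.2%. In the combined list 36 gaps of that length held 26.1%.

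The 5 longest gaps of the combined list were nearly free of replicate regions too. They ran from 3896801 to 4160288 (263.5 kb), from 11543480 to 11803256 (259.8 kb), from 16892979 to 17130040 (237.1 kb), from 17131965 to 17367713 (235.7 kb) and from 15273732 to 15488483 (214.8 kb). Replicate 2 covered 0 bp of these 5 gaps. Replicate 1 covered at most 229 bp of any of them, in the first.

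The third and the fourth of these gaps are parted by 1 region of 1924 bp, from 17130041 to 17131964, with a low score of 0.124. It overlapped a region of replicate 1 and none of replicate 2, whose longest gap, 487.7 kb from 16892695 to 17380376, spans the stretch. The 474.7 kb from 16892979 to 17367713 thus hold this region alone in the combined list. Replicates also shared a gap that the combined list breaks up: from 15763030 to 16041096 in replicate 1 (278.1 kb) and from 15753629 to 16041177 in replicate 2 (287.5 kb). The combined list has 2 regions in the middle of both, from 15894162 to 15895372 and from 15910066 to 15911651, with scores of 0.300 and 0.289, which overlap neither replicate.

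At the other extreme, neighbours lay almost end to end. The 5 shortest gaps of the combined list measured 0, 7, 9, 10 and 12 bp, so what is listed as 2 regions there is nearly 1. The tightest separate runs of 10 neighbouring combined regions spanned 37.4 to 45.0 kb, where the median span of 10 was 130.2 kb and the widest 567.4 kb. The tightest run lay from 10402921 to 10440286, with 72.8% covered in replicate 1 and 62.2% in replicate 2. The others lay from 6049979 to 6088419 (52.0% and 37.5%), from 8300031 to 8339159 (43.4% and 28.9%), from 19549305 to 19593991 (46.9% and 45.9%) and from 16847944 to 16892978 (31.2% and 29.0%). The last of these runs stops at the base before 16892979, so a tight run of regions adjoins the 474.7 kb that hold 1 region.

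In steps of 100 kb, the 200 windows between 1000001 and 21000000 went from 0 to over 40% covered. The median window was 9.05% covered in replicate 1 and 7.95% in replicate 2, and the highest values were 42.2% and 43.1%. The 20 fullest windows of each list held 28.4% and 29.7% of the covered bases, and the emptier 100 windows held 17.0% and 15.0%. The number of regions per window had a variance of 2.52 times its mean in replicate 1 and 2.41 times in replicate 2.

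**Figure D2:**
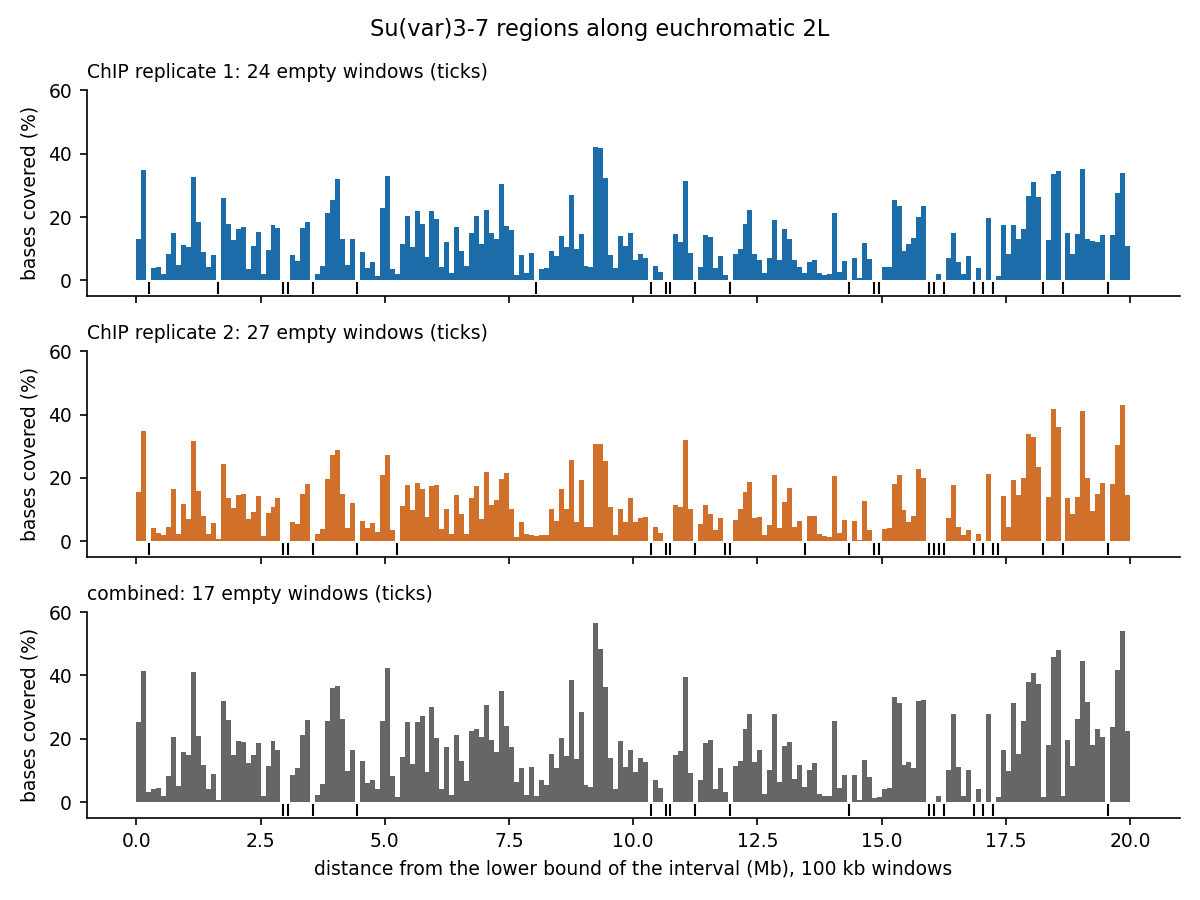
Percentage of bases inside enriched regions in 200 windows of 100 kb along euchromatic 2L, by distance from the lower bound, for replicate 1 (top), replicate 2 (middle) and the combined list (bottom), with ticks under windows that have no covered base. Empty windows are not evenly spread: the combined list has none between bases 5500000 and 11300001. In all 3 lists 17 windows are empty.

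By the mean of the replicates, the 5 fullest windows on this grid were in 2 parts of the arm. The fullest place depends on the grid: with windows shifted by 50 kb it starts at 18950001 (50.9%), outside these 5, and with windows of 50 kb at 20050001 (70.4%). The window from 20800001 to 20900000 was 34.1% covered in replicate 1 and 43.1% in replicate 2. It was followed by 20000001 to 20100000 with 35.2% and 41.1%, which holds most of the longest region, and 19400001 to 19500000 with 33.7% and 41.7%. In these 3 windows replicate 2 was higher. The other 2 are neighbours near the middle of the arm, where replicate 1 was higher: 10200001 to 10300000 had 42.2% and 30.7%, and 10300001 to 10400000 had 42.0% and 30.6%. The first of them shows the widest difference between the replicates of any window, 11.5 percentage points.

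At a level of at least 20% covered in both replicates there were 23 windows, in 15 stretches. Of the stretches 9 were single windows, and the longest were 3 windows each. The stretch from 10200001 to 10500000 held 38 regions of replicate 1, 29 of replicate 2 and 45 of the combined list, at 38.8% and 28.8% covered. The stretch from 18900001 to 19200000 held 26, 20 and 27 regions, at 28.0% and 30.1%. The window just before the first stretch, from 10100001 to 10200000, was sparse, with 4.24% and 4.51% covered.

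Empty windows numbered 24 in replicate 1, 27 in replicate 2 and 17 in the combined list. The replicates shared 22 of them, and 7 were empty in 1 replicate alone. The 17 windows empty in the combined list were empty in both replicates. They lay singly except for 3 pairs, from 3900001 to 4100000, from 11600001 to 11800000 and from 16900001 to 17100000. All 3 pairs were empty in each of the 3 lists. In replicate 2 the last pair was part of 4 empty windows in a row up to 17300000. Both replicates also had an empty pair from 15800001 to 16000000, and replicate 2 had further pairs from 12800001 to 13000000 and from 18200001 to 18400000.

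In large windows of 4 Mb the arm was less uneven. The mean covered share was 10.7% ± 0.736 from 1000001 to 5000000, 11.8% ± 1.22 in the next window, 9.83% ± 0.912 in the third, 8.58% ± 0.588 in the fourth and 13.4% ± 0.815 from 17000001 to 21000000 (SD, n = 2 each). The last window, nearest the centromere, was the highest and the one before it the lowest in both replicates. It held 8 of the 23 windows over 20% and also 6 of the 17 empty ones, in both cases more than any other of these 5 windows. The 2 kinds lay mostly apart: the 8 were all from 18900001 on. The empty ones were up to 18300000, except the one from 20500001 to 20600000.

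The replicate with the higher covered share was not the same along the whole arm. Replicate 1 covered more than replicate 2 in 28 of 40, 34 of 40, 24 of 40 and 25 of 40 windows of 100 kb in the first 4 large windows, where the ratio of replicate 2 to replicate 1 was 0.907, 0.864, 0.877 and 0.908. In the last one replicate 1 led in 12 of 40 windows and replicate 2 in 20, and the ratio was 1.09. Beyond the upper bound, in the 2 Mb at the centromere end, it was 1.17, and in the 1 Mb at the tip 0.927. Depth is unknown, and its part in this difference was not tested.

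The regions of the replicates mostly coincided. Of the regions of replicate 1, 711 of 877 (81.1%, exact 95% interval 78.3 to 83.6%) overlapped one of replicate 2 by at least 1 bp, against 83.3% over the whole list of replicate 1. Of those of replicate 2, 688 of 789 (87.2%, 84.7 to 89.5%) overlapped one of replicate 1, against 81.2% over its whole list. The intervals cover counting error only and treat the regions of a library as independent. They are therefore no test against the whole list, which holds these regions too. By value alone, the first share was below that of its list and the second above it. Regions without a partner were shorter and scored lower: their median length was 1725 bp against 2308 bp in replicate 1 and 1537 bp against 2216 bp in replicate 2, and their median score was 0.426 against 0.696 and 0.455 against 0.625. The score is the authors' value per region, on a scale not given in the sources used here.

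Counted in bases, 1740 kb were covered in both replicates, 66.8% of the 2604 kb covered in either. Replicate 1 alone covered 506.5 kb, of which 59.3% lay in regions that met none of replicate 2, and the rest within regions that met one. Replicate 2 alone covered 357.1 kb, of which 47.6% lay in regions without a partner. There were 607 pairs in which a region of replicate 1 and one of replicate 2 met each other and no further region. Their edges were 109 bp apart in the median over 1214 edges, with the middle 50% from 35 to 307 bp. Both edges lay within 200 bp of each other in 282 of these pairs (46.5%). The region of replicate 1 was the longer one in 373 pairs and that of replicate 2 in 234. The rank correlation of the scores over the 607 pairs was 0.79 (Spearman's rho, a description across regions that share 2 libraries). Over the 200 windows, the covered shares of the replicates had a Pearson's r of 0.955 and a Spearman's rho of 0.965, also as a description, since the windows come from the same 2 libraries.

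**Figure D3:**
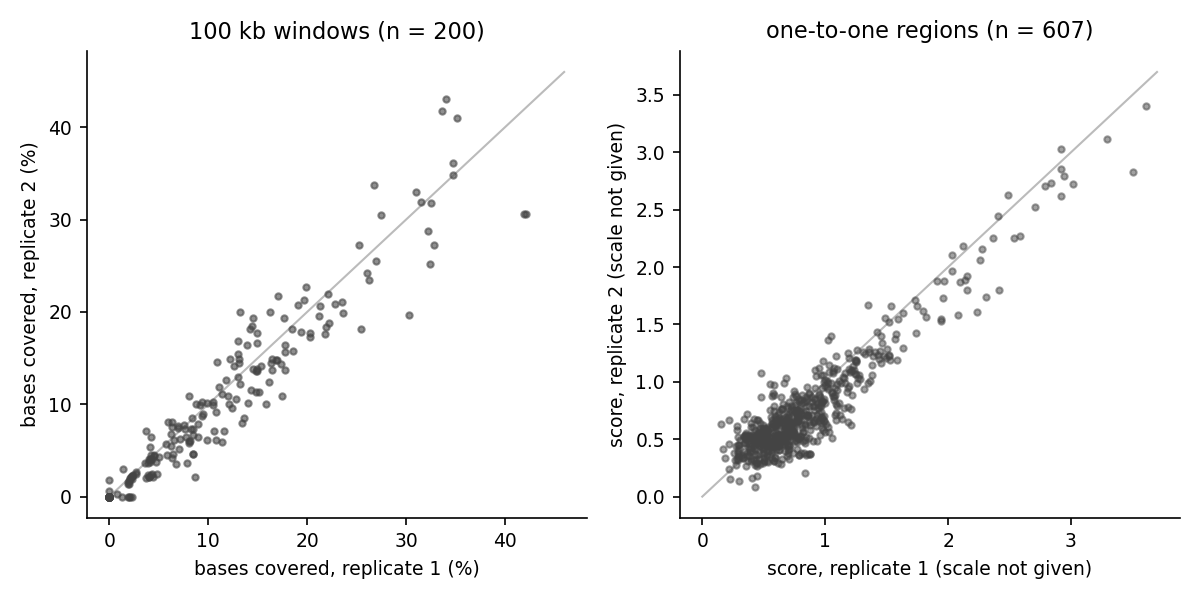
Replicate 2 against replicate 1 on euchromatic 2L: left, percentage of bases covered in each of 200 windows of 100 kb; right, scores of 607 pairs of regions that meet each other and no further region. Grey lines mark equal values, and 123 windows lie on the side of replicate 1 and 55 on that of replicate 2.

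Of the 1126 combined regions, 660 (58.6%, exact 95% interval 55.7 to 61.5%) overlapped both replicates, against 53.2% over the whole combined list. A further 151 (13.4%) overlapped replicate 1 alone and 81 (7.19%) replicate 2 alone, against 10.9% and 11.5% over the whole list. The other 234 (20.8%) overlapped neither, against 24.4%. The combined list was made from the replicates, so these shares are no independent check of it. The interval treats regions as independent and is no test against the whole list. Those that overlapped both made up 74.8% of the summed length of the members.

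Length and score both went with being found in both replicates. None of the 150 combined regions shorter than 1301 bp overlapped both replicates. The share was 39 of 290 (13.4%) from 1301 to 1999 bp, 531 of 595 (89.2%) from 2000 to 4999 bp, 77 of 78 (98.7%) from 5000 to 9999 bp and 13 of 13 from 10000 bp up. With the members divided by score into 4 groups of equal size, 14.9% of the lowest group, 33.5% of the second, 89.3% of the third and 96.8% of the highest were found in both. Scores tended to rise with length (Spearman's rho 0.64 over the 1126 regions, a description), so the 2 orders are not separate facts. At the short end they did not: the median score was 0.342 below 1301 bp and 0.279 from 1301 to 1999 bp. Regions in neither replicate had a median length of 1248 bp and a median score of 0.330, against 2688 bp and 0.619 for those found in both. Regions in replicate 1 alone had a lower median score than those in neither, 0.286, and those in replicate 2 alone a nearly equal one, 0.324. Both were longer than those in neither (medians of 1856 and 1744 bp). Of the 234, 133 were shorter than any replicate region. The shares by length and by score were not worked out over the whole combined list, so they are not shown to be particular to 2L.

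**Figure D4:**
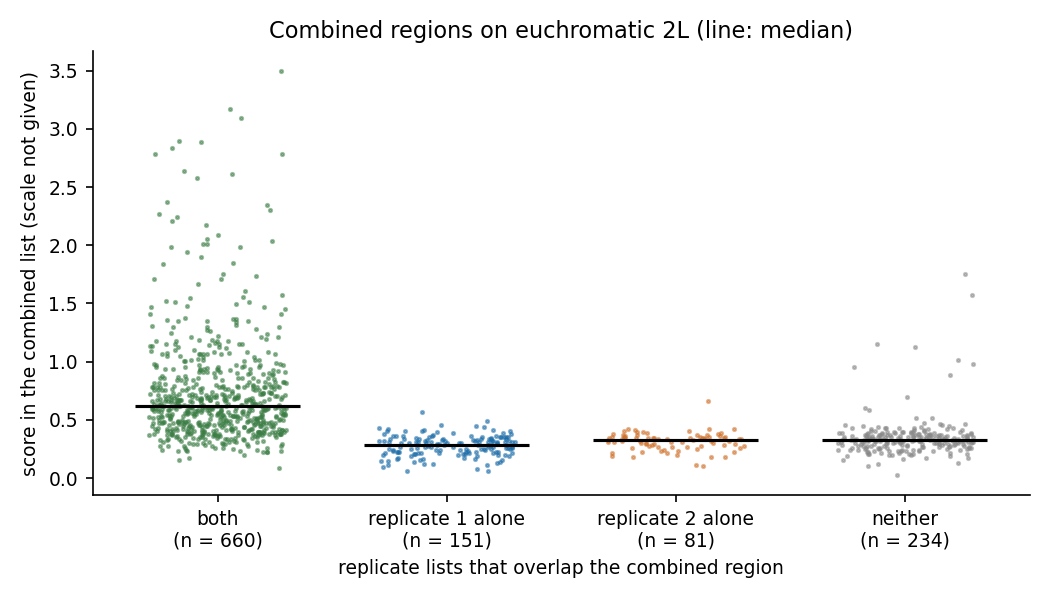
Score in the combined list (scale not given) of each of the 1126 members, by the replicate lists that overlap it, with a line at the median of each class. Regions found in both have a median of 0.619 and reach 3.50, the other classes have medians from 0.286 to 0.330, and a few regions found in neither stand above 0.9.

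The highest scores belonged to regions of moderate length that both replicates marked. The highest, 3.50, was at 14705191 to 14707602 (2412 bp), where replicate 1 had its own highest score on the interval, 3.61, and replicate 2 likewise, 3.40. It began at 14705184 in replicate 1 and at 14705223 in replicate 2. Next came 20119070 to 20122266 with 3.17, 7533265 to 7536402 with 3.10, 12519258 to 12521627 with 2.89 and 15497852 to 15500756 with 2.88. The remaining 5 of the 10 were 14093680 to 14096003 (2.84), 7280444 to 7282778 (2.78), 5364799 to 5367261 (2.78), 4344322 to 4347081 (2.64) and 17783656 to 17785934 (2.61). Their lengths ran from 2279 to 3197 bp, and each met exactly 1 region of either replicate, with no less than 82.5% of it covered. The longest region, in contrast, ranked 122nd by score. The 10 were scattered along the arm, and none lay in the 5 fullest windows.

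Set beside the same stretches of 3L, 3R and X (1 Mb cut at the tip and 2 Mb at the centromere end), euchromatic 2L was covered much like 3L and 3R but had more of its length in gaps of 100 kb or more. The covered share was 10.9% ± 0.528 on 2L, 11.0% ± 0.486 on 3L, 10.2% ± 0.914 on 3R and 15.3% ± 0.243 on X (SD, n = 2). The difference of 2L from 3L was -0.186 ± 0.0415 percentage points and from 3R 0.703 ± 0.386. The former turned to 0.327 with the upper 50% of each list by score, and the latter was 0.296 with bounds 1 Mb further in. With all regions and the bounds as given, the difference from 3L is smaller than the SD of either arm, and that from 3R is above the SD of 2L and below that of 3R. Within replicates 1 and 2, the difference was -0.157 and -0.216 points from 3L, and 0.430 and 0.976 from 3R. From X it was -4.44 ± 0.770 points, lower on 2L in both replicates. Median lengths were alike, at 2172 bp on 2L, 2167 on 3L, 2154 on 3R and 2166 on X.

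Gaps of 100 kb or more held 33.3% ± 2.78 of euchromatic 2L, 24.5% ± 3.22 of 3L, 23.1% ± 2.78 of 3R and 17.6% ± 0.901 of X. Within replicates, 2L was higher than 3L by 8.79 ± 0.435 points, than 3R by 10.1 ± 0.00149 and than X by 15.7 ± 1.88. The size of the difference depends on the length taken: gaps of 50 kb or more held 51.0% ± 3.05 of 2L, 44.8% ± 3.05 of 3L, 48.4% ± 2.29 of 3R and 38.1% ± 0.752 of X. At that length 2L was higher than 3L by 6.25 ± 0.00568 points and than 3R by 2.62 ± 0.758. The latter is above its own SD within replicates and less than the SD of 2L. With 2 values, SDs as small as 0.00149 and 0.00568 are no measure of precision. Empty windows of 100 kb made up 12.8% ± 1.06 of those on 2L, 6.74% ± 1.64 on 3L, 8.43% ± 1.70 on 3R and 3.61% on X in each replicate. Short gaps went the other way: the median gap was 6991 ± 561 bp on 2L, 8420 ± 50.6 on 3L and 8962 ± 933 on 3R. So in each replicate the median gap was shorter on 2L than on 3L and 3R, while gaps of 100 kb or more held more of it. The mean gap, 20178 and 22708 bp on 2L, was longer than on 3L (19322 and 20643 bp). It was shorter than on 3R (20391 and 23186 bp). On X the median gap was smaller, 5352 ± 193 bp. The variance of region number per window over its mean was 2.46 ± 0.0779 on 2L, 1.96 ± 0.200 on 3L, 2.07 ± 0.0472 on 3R and 2.40 ± 0.244 on X. These differences were not tested, so none of them is shown to be particular to 2L.

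**Figure D5:**
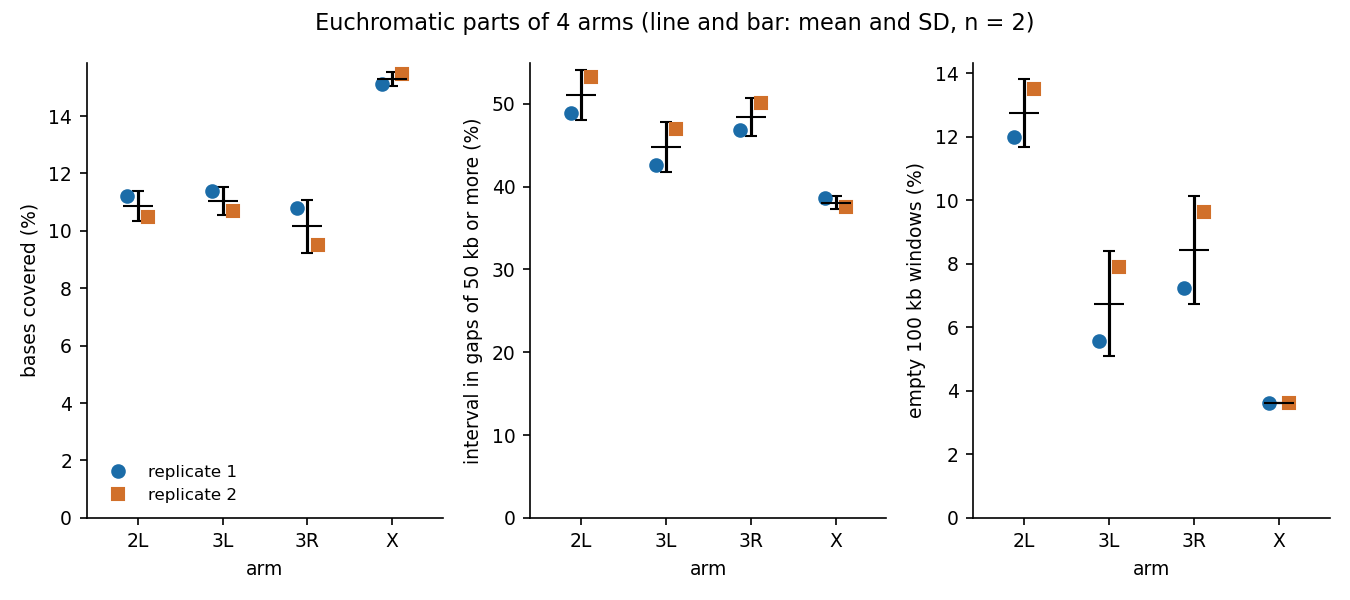
Covered share (left), share of the interval in gaps of 50 kb or more (middle) and share of empty 100 kb windows (right) for the euchromatic parts of 2L, 3L, 3R and X, with points for each replicate and a line and bar for mean and SD (n = 2). The mean of 2L is the highest in the middle and right panels, at 51.0% and 12.8%, though in the middle panel replicate 2 of 3R, at 50.0%, lies above replicate 1 of 2L, at 48.9%. X is the highest in the left panel.

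The ends of the arm that the bounds leave out were denser than the interval. The 1 Mb at the tip was covered at 17.7% ± 0.950 and the 2 Mb at the centromere end at 35.2% ± 3.98 (SD, n = 2). Region number was alike at the ends, 64.0 per Mb at the tip in each replicate and 63.5 ± 1.41 at the centromere end, so the higher covered share at the centromere end came with longer regions: the median there was 2980 ± 120 bp, against 2160 ± 111 bp at the tip and 2172 ± 34.6 bp in the interval.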

How the data were processed

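Regions of significant enrichment, with a score per region, were deposited by the authors as 1 list for each ChIP replicate and 1 that combines them, in FlyBase release 5 per the file headers. Each replicate was called with the input of its own number, per the labels. Bowtie 0.12.7 is named in the submitters' processing notes. The sources used here do not name the region caller, its threshold, the scale of the score or the way of combining. The depth is unknown and gives no precision for a single region.

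Regions were assigned by their start. Covered shares count bases inside regions, clipped to the interval. Overlap needs at least 1 bp. An empty window has no covered base. The only gene table used is of release 6, so regions carry no gene names, and no release 5 sequence was used here. Named are the 10 highest-scoring and 5 longest combined regions, the 5 longest and shortest gaps, the 5 fullest windows, runs of empty windows, the 5 tightest runs of 10 and the regions at the bounds; a few others were chosen after their values were seen. The members and the rules were chosen with earlier results of these data known. Computations used Python 3.11.15, numpy 2.4.6, pandas 2.3.3, scipy 1.17.1 and matplotlib 3.10.9, with the interval arithmetic checked on small sets with known answers. Alternatives covered merging, score, bounds, overlap, window size and leaving out a replicate.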

Additional observations from a re-analysis of the deposited data

How the results depend on the processing

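No paired analysis was possible because ChIP and input share numbers but the lists used here describe ChIP libraries alone; arms were compared within each replicate, with no test. Of 42 values under other settings, 28 stayed within the spread between replicates, their counting interval or, for counts, 1.5 times, 13 moved further and 1 changed sign. The 28 include the values with 1 replicate left out. With 2 replicates such a value always lies within the SD of their mean, so apart from the number of regions these say nothing about stability. Keeping the upper 50% of each whole list by score left 354 regions, 5.86% covered, a median length of 2610 bp and a median gap of 25369 bp, and turned the difference of 2L from 3L to 0.327 points. Merging neighbours less than 1000 bp apart gave a median length of 2247.5 bp and a median gap of 10202 bp. Bounds 1 Mb further in gave a difference of -0.321 points from 3L and 0.296 from 3R. Combined regions no shorter than the shortest replicate region were found in both replicates in 67.6% of cases. Windows of 50 kb gave 79 empty of 400 and a highest mean of 70.4%, windows of 200 kb 1 empty of 100, and windows shifted by 50 kb a highest mean of 50.9%; the place of the fullest window moved with each of these grids. With 1 replicate left out, the number was 789 to 877, the covered share 10.5 to 11.2%, the median length 2147 to 2196 bp, the median gap 6594 to 7388 bp, and the difference from 3L -0.216 to -0.157, from 3R 0.430 to 0.976 and from X -4.98 to -3.89 points. Cutting by score or size removes regions by construction; the cause of the other changes was not tested. Depth is unknown.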

Other observations

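Some combined regions scored high although neither replicate list has a region there. Of the 234 combined regions in neither replicate, 13 scored at least 0.5 and 7 at least 0.9; these were picked after their values were seen. The highest, from 10593317 to 10595164 (1848 bp, score 1.75), lay 40.6 kb from the nearest region of replicate 1 and 40.9 kb from that of replicate 2. It was the farthest of the 7 from any replicate region: for the others the nearest one lay from 0.239 to 21.7 kb away. Of the 7, 4 neighbours sat side by side, from 5170880 to 5171943 (1.12), 5173761 to 5175554 (1.58), 5175706 to 5177877 (1.01) and 5178739 to 5179853 (0.976). The others were 20895607 to 20896675 (1.15) and 19711917 to 19712917 (0.954). The way the replicates were combined is not stated in the labels or file headers, and no cause was tested. Over the whole combined list 2310 of 9474 regions (24.4%) overlapped neither replicate. How many of those scored as high was not counted, so the counts of 13 and 7 are not shown to be particular to 2L.

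Of the 10 highest-scoring combined regions, 5 stood next to a gap of at least 100 kb, as did 69 of all 1126 members (6.13%). In the replicate lists it was 4 of 10 against 9.12% in replicate 1 and 3 of 10 against 10.8% in replicate 2. Over the 50 highest the counts were 8, 9 and 11 (16.0%, 18.0% and 22.0%). Across all members, score and the larger neighbouring gap were nearly unrelated (Spearman's rho 0.01 in the combined list, 0.05 in replicate 1 and 0.09 in replicate 2). The other arms had such counts too. Of the 50 highest on euchromatic 3L, 4, 7 and 11 stood next to such a gap in the combined list, replicate 1 and replicate 2 (8%, 14% and 22%, against 3.34%, 6.59% and 7.97% of all regions). On 3R it was 5, 7 and 7 (10%, 14% and 14%, against 3.40%, 6.52% and 7.81%), and on X 0, 5 and 3 (0%, 10% and 6%, against 1.91%, 4.04% and 4.25%). The comparison was made after the values were seen and has no test.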
